A study of Mus musculus with 23 samples.

Results

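The unfolded protein response genes described here are 10 genes that cells raise or use when misfolded protein builds up in the endoplasmic reticulum (ER). They comprise the ER chaperones and co-factors Hspa5, Hyou1, Sdf2l1, Dnajb9 and Creld2, the ER-associated degradation genes Herpud1 and Syvn1, and the transcription factor genes Xbp1, Atf4 and Ddit3. They were chosen by name from the pathway, with earlier results of these data known. All 10 were measured, among 19938 genes on the arrays, each by a single transcript cluster. The cells came from Py2T tumours, a murine breast carcinoma line grown in the mammary fat pad of female FVB/N mice, and were separated by fluorescence-activated sorting into endothelial cells and tumour cells. Treated mice received nintedanib, which blocks the receptor kinases for VEGF, FGF and PDGF. The dose was 50 mg/kg, started once tumours could be measured. The 6 groups were short-term tumour cells (7 days of nintedanib, 4 arrays), long-term tumour cells (21 days, 5 arrays), untreated tumour cells (3 arrays), short-term endothelial cells (3 arrays), long-term endothelial cells (5 arrays) and untreated endothelial cells (3 arrays). The untreated tumours had the size of the long-term tumours, so the short-term group had no untreated group matched to it in size. All groups share 1 tumour line and 1 mouse strain. Samples within a group carry the label of biological replicates. Whether an array held cells of 1 mouse or of several, and the age of the mice, is not given in the sources used here.

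The unfolded protein response starts from sensors in the ER membrane. IRE1 (gene Ern1) splices Xbp1 messenger RNA, PERK (Eif2ak3) slows translation while favouring that of ATF4, and ATF6 is cut by proteases to free a transcription factor. Their targets include chaperones, components that export misfolded proteins for degradation and, downstream of ATF4, the factor CHOP encoded by Ddit3. In tumours the response is known as one that low oxygen and scarce nutrients can start. An array reports 1 value per transcript cluster, so the spliced and unspliced forms of Xbp1, or ATF4 protein, were not measured.

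Promoter sequences show which response elements lie before these genes, and those of the 4 members that hold a known element are printed for that reason. Each runs over the 250 bases before the annotated start, on the gene's own strand, from RefSeq (GRCm38.p6), and 9 of the 10 members matched a window, the exception being Hyou1. Capitals mark the fixed bases of a matched element.
Herpud1: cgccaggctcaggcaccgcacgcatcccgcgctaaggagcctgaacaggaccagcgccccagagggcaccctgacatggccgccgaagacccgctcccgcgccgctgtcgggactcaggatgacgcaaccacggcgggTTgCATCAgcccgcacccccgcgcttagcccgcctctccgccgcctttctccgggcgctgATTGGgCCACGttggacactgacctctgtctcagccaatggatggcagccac
Hspa5: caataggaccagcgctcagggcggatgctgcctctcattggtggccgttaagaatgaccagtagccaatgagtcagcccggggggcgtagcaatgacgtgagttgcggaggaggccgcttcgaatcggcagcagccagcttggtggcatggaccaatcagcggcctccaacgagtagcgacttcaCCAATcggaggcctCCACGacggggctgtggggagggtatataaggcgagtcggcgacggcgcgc
Creld2: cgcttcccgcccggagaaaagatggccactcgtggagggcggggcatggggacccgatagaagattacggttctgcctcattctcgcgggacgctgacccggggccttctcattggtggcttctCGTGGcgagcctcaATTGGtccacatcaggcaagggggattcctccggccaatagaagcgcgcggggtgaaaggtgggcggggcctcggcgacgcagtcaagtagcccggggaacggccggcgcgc
Syvn1: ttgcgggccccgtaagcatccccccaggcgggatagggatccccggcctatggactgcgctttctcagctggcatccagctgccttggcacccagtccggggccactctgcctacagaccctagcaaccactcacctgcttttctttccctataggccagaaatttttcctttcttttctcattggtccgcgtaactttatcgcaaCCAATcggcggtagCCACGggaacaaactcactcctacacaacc
The windows lie at chr8:94386179-94386428 (Herpud1), chr2:34771840-34772089 (Hspa5), chr15:88819396-88819645 (Creld2) and chr19:6046326-6046575 (Syvn1), all on the plus strand. The ER stress response element (ERSE, the letters CCAAT, 9 free bases and CCACG), read by ATF6 and XBP1 together with NF-Y, was searched on both strands. It was found in Hspa5 65 to 47 bases before the start, in Syvn1 at 44 to 26 bases and, on the minus strand, in Creld2 at 126 to 108 bases. Herpud1 holds ERSE-II (ATTGG, 1 free base and CCACG), which shares its CCACG end with ERSE, 52 to 42 bases before the start. It also holds, on the minus strand at 112 to 105 bases, the element TGATGNAA that ATF4 and CHOP bind. The Herpud1 window ends in CCAAT, 9 bases and CCAC. Whether an ERSE crosses that edge could not be seen, because the search stopped at the annotated start. Of 32851 mouse promoter windows of the same length, 0.113% held ERSE, 0.0304% held ERSE-II, 3.45% held TGATGNAA and 0.563% held the further element TGACGTGG, which no member window holds. In the windows of Ddit3, Xbp1, Dnajb9, Atf4 and Sdf2l1 none of these letters matched.

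Marker levels were checked against the labels of the sorted cells. Endothelial markers (12 of 12 measured) averaged 9.99 to 10.59 log2 units on endothelial arrays and 3.95 to 4.31 on tumour cell arrays. Epithelial markers (6 of 6) averaged 5.44 to 8.45 on endothelial and 6.98 to 7.67 on tumour cell arrays, the highest being long-term endothelial replicate 4. The epithelial marker Epcam was low in tumour cells, with group means of 4.29 to 4.67, while Krt8 averaged 11.37 to 11.49 there. In endothelial cells the group means were 4.41 to 4.71 for Epcam and 8.91 to 9.48 for Krt8. Krt8 reached 11.02 on a long-term endothelial array. Macrophage markers (12 of 12) averaged 5.16 to 8.09 in long-term, 4.67 to 5.30 in short-term and 5.92 to 8.10 in untreated endothelial arrays, and 4.27 to 5.40 in tumour cell arrays. On that list 3 endothelial arrays stood above 7, untreated replicate 1 and long-term replicates 3 and 4, and counts without them were added after seeing the data. Markers of B and plasma cells (8 of 9 measured) averaged 3.72 to 4.24 and of T cells (4 of 5) 3.46 to 3.92 on all arrays. Fibroblast markers averaged 5.87 to 7.33. Pericyte markers averaged 5.93 to 6.46 in short-term, 5.40 to 5.83 in long-term and 5.41 to 6.05 in untreated endothelial arrays, and 4.65 to 5.05 in tumour cell arrays. In long-term against short-term endothelial cells 6 of 7 pericyte genes were lower by value. There 4 of 7 had an unadjusted p under 0.05, beside 9.4% of all genes, and none was called. In sorted bulk samples, fewer cells of a type and less RNA per cell cannot be told apart.

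Across arrays the members varied more in endothelial than in tumour cells. Their median moderated residual SD was 0.351 log2 units in endothelial and 0.193 in tumour cells, beside 0.248 and 0.152 over all genes. In tumour cells it was smallest for Creld2 (0.0914) and Atf4 (0.0980), and largest for Dnajb9 (0.318). In endothelial cells it was largest for Ddit3 (0.633) and Sdf2l1 (0.538). The number of arrays, 3 to 5 per group, limits the precision.

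**Figure D1:**
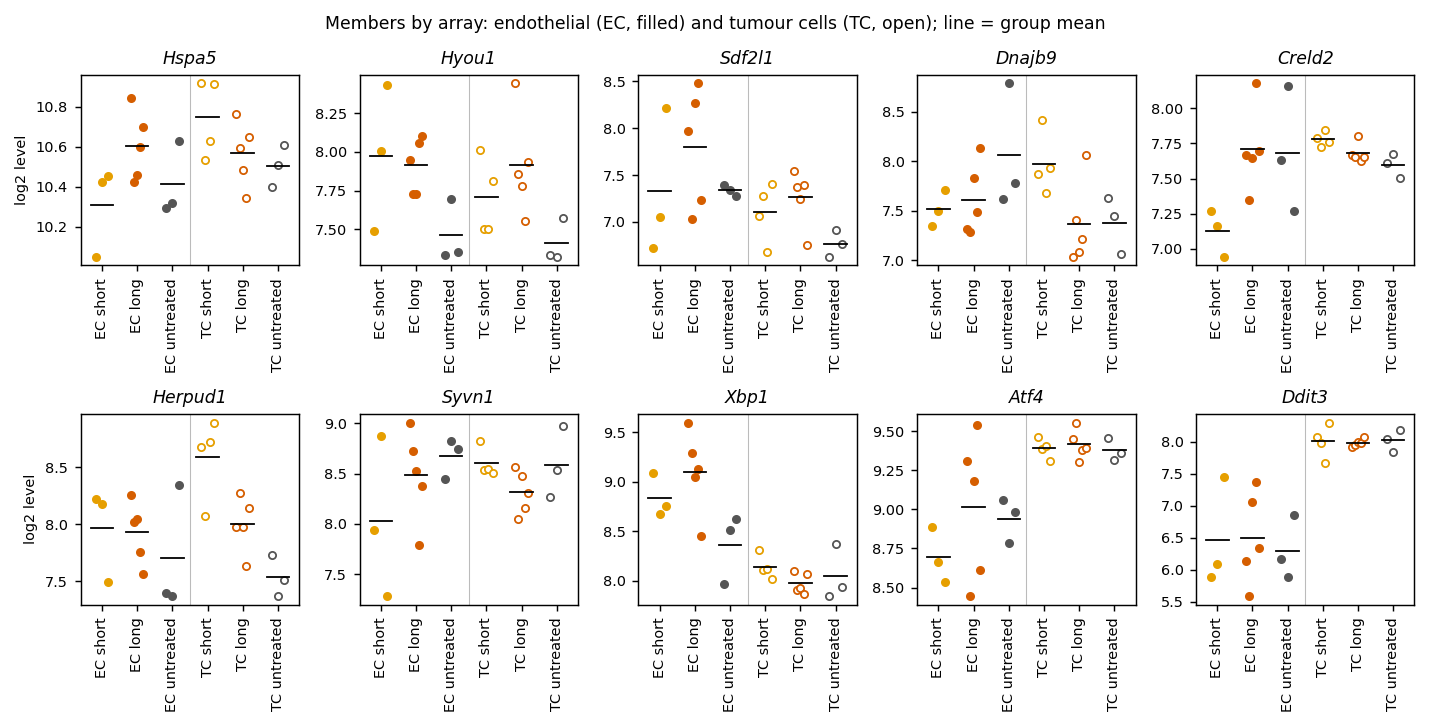
Log2 level (vertical axis, deposited units) of each of the 10 genes on every array, with 1 panel a gene and the groups in the order short-term, long-term and untreated for endothelial (EC) and then tumour cells (TC). Points are arrays and bars are group means. Herpud1 lies at 8.07 to 8.90 in short-term tumour cells and at 7.37 to 7.73 in untreated ones, and Ddit3 lies at 5.59 to 7.44 on endothelial and 7.67 to 8.30 on tumour cell arrays.

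After 7 days of nintedanib, tumour cells held more Herpud1 transcript, and the other 9 members did not pass the test. Herpud1 encodes an ER membrane protein that helps to gather the machinery of ER-associated degradation. Its log2 levels were 8.68, 8.07, 8.72 and 8.90 in short-term tumour cells, 7.98, 8.28, 7.98, 7.63 and 8.14 in long-term tumour cells and 7.73, 7.37 and 7.51 in untreated tumour cells. Every short-term array stood above every untreated one, while long-term and untreated arrays overlapped. Group means were 8.59 ± 0.36 (SD, n = 4) for short-term and 7.54 ± 0.18 (SD, n = 3) for untreated tumour cells. The difference was 1.06 ± 0.19 log2 units (SE), or 2.08-fold, with limma's adjusted p = 0.0392. Thus 1 of the 10 members was called, in a comparison where 0.507% of all genes were called and 0.396% were called higher. All 10 members passed a filter at the 50th percentile of mean level, and of the 9970 genes that did, 1.27% were called and 0.903% called higher. The call was lost when any one of 8 arrays was left out (untreated replicate 1, 2 or 3, short-term replicate 1, 3 or 4, or long-term replicate 1 or 3). Over all 20 alternatives the difference ranged between 0.96 and 1.23 and the adjusted p between 0.0126 and 0.113, with 9 alternatives under 0.05.

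The chaperones and co-factors in the same comparison differed less. Dnajb9, the BiP co-chaperone ERdj4, had 7.87, 8.41, 7.68 and 7.94 in short-term and 7.62, 7.45 and 7.06 in untreated tumour cells. Creld2, an ER protein with thioredoxin-like activity, had 7.79, 7.73, 7.84 and 7.76 in short-term and 7.61, 7.67 and 7.51 in untreated tumour cells. The short-term and untreated arrays did not overlap for either gene, with differences of 0.60 ± 0.24 (adjusted p = 0.373) for Dnajb9 and 0.18 ± 0.07 (adjusted p = 0.331) for Creld2. Neither was called, and the share of all genes without such overlap was not counted. Hspa5, which encodes the ER chaperone BiP, had 10.92, 10.53, 10.63 and 10.91 in short-term and 10.40, 10.51 and 10.61 in untreated tumour cells, and these groups overlapped. Herpud1, Dnajb9 and Creld2 were the 3 of 10 members with an unadjusted p under 0.05. The share was 11% of all genes, and 14.6% of the genes that passed the filter at the 50th percentile. The 7 members with an unadjusted p of 0.05 or more differed by -0.02 to 0.34. Those values include Hspa5, the chaperones Hyou1 and Sdf2l1, the degradation ubiquitin ligase gene Syvn1, and the transcription factor genes Xbp1, Atf4 and Ddit3. The median difference of the 10 members was 0.21, with 9 of 10 positive, beside a median of -0.01 and 46.8% positive over all genes and a median of 0.02 over the genes that passed the filter at the 50th percentile.

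Other marker lists moved with this comparison. The isolation stress list, immediate early genes that tissue handling can raise, averaged 9.65 to 10.05 in short-term, 9.13 to 9.75 in long-term and 8.96 to 9.39 in untreated tumour cells. All 16 of its genes were higher in short-term than in untreated cells by value, 2 of them called, with a median difference of 0.82. Cytosolic heat shock genes (9 of 10 measured) averaged 10.02 to 10.20 in short-term, 9.79 to 9.85 in long-term and 9.50 to 9.73 in untreated tumour cells, with 3 of 9 called higher. Epithelial markers averaged 7.54 to 7.67 in short-term and 7.06 to 7.25 in untreated tumour cells, with 5 of 6 genes higher by value (median 0.26) and none called. Macrophage markers averaged 4.27 to 5.24 in short-term and 4.69 to 5.40 in untreated tumour cells, with 10 of 12 genes lower by value (median -0.43) and none called. The part of these lists in the Herpud1 difference was not tested.

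After 21 days, no member was called against untreated tumour cells, where 0.0903% of all genes were called. Hyou1, an ER chaperone of the large Hsp70 class, had 8.44, 7.86, 7.78, 7.55 and 7.93 in long-term and 7.34, 7.32 and 7.57 in untreated tumour cells. Sdf2l1, which partners BiP and its co-chaperones, had 7.55, 7.37, 7.24, 7.39 and 6.75 in long-term and 6.63, 6.92 and 6.77 in untreated tumour cells. Both genes overlapped, Hyou1 by 1 long-term array at 7.55 and Sdf2l1 by 1 at 6.75. Differences were 0.50 ± 0.18 for Hyou1 (adjusted p = 0.376), 0.49 ± 0.18 for Sdf2l1 (adjusted p = 0.394) and 0.47 ± 0.18 for Herpud1 (adjusted p = 0.407). These 3 of 10 members had an unadjusted p under 0.05, beside 10.1% of all genes, and the other 7 differed by -0.28 to 0.08. The members' median difference was 0.05, beside -0.01 for all genes and 0.05 for the genes that passed the filter at the 50th percentile.

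Long-term against short-term tumour cells gave no member called, beside 1.22% of all genes. Herpud1 differed by -0.59 ± 0.17 (adjusted p = 0.130), and its 2 groups overlapped where long-term replicates 2 (8.28) and 5 (8.14) stood above short-term replicate 2 (8.07). Dnajb9 had 7.03, 7.41, 7.09, 7.22 and 8.06 in long-term tumour cells, against the short-term values above, a difference of -0.61 ± 0.21 (adjusted p = 0.245). Long-term replicate 5 was the one long-term array within the short-term range. Herpud1 passed without short-term replicate 2, at -0.77 and adjusted p = 0.0383, with adjusted p between 0.0383 and 0.500 over its 20 alternatives. Dnajb9 passed without long-term replicate 5, at -0.79 and adjusted p = 0.0420, with adjusted p between 0.0310 and 0.620 over its 20 alternatives. These 2 were also the members with an unadjusted p under 0.05, beside 11.9% of all genes, and the other 8 differed by -0.29 to 0.21. The comparisons within tumour cells share their arrays, so their values are given side by side and are not independent.

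In endothelial cells no member was called in any treatment comparison, and no gene on the arrays was, so percent called was 0 in each. Short-term against untreated gave 2 members and 8.17% of all genes with an unadjusted p under 0.05. Long-term against untreated gave 2 members and 4.18% of all genes, and long-term against short-term gave 1 member and 9.4%. The limma fit with the 3 macrophage-high arrays left out also called no member.

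Among the endothelial values, Xbp1 was the member furthest above untreated after 21 days. It had 9.09, 8.68 and 8.75 in short-term, 9.60, 9.29, 9.05, 9.13 and 8.45 in long-term and 7.96, 8.51 and 8.62 in untreated endothelial cells. Short-term arrays all stood above untreated ones, while long-term replicate 5 (8.45) lay within the untreated range. The long-term difference was 0.74 ± 0.25 (unadjusted p = 0.0132, adjusted p = 1.00), and 0.55 without the 3 macrophage-high arrays, with adjusted p between 0.180 and 1.00 over its alternatives. Hyou1 had 7.49, 8.01 and 8.43 in short-term, 7.95, 7.73, 7.73, 8.06 and 8.10 in long-term and 7.34, 7.70 and 7.36 in untreated endothelial cells. All long-term arrays stood above the untreated ones. Its differences were 0.51 ± 0.22 in short-term (adjusted p = 0.609) and 0.45 ± 0.20 in long-term cells (adjusted p = 1.00). The short-term value was 0.29 without short-term replicate 3. Creld2 had 7.27, 7.16 and 6.94 in short-term, 7.67, 7.35, 7.64, 8.18 and 7.70 in long-term and 7.63, 8.16 and 7.27 in untreated endothelial cells. The short-term values lay below every long-term value, and one of them, 7.27, met the lowest untreated value. Creld2 differed by -0.56 ± 0.25 between short-term and untreated cells (adjusted p = 0.609) and by 0.58 ± 0.22 between long-term and short-term cells (adjusted p = 0.474). The first value was -0.32 without untreated replicate 2.

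Herpud1, the member called in tumour cells, had 8.22, 8.18 and 7.49 in short-term, 8.26, 8.02, 8.05, 7.76 and 7.56 in long-term and 7.39, 7.37 and 8.35 in untreated endothelial cells. These groups overlapped because 1 untreated array, replicate 3, was the highest of the 11. The differences from untreated were 0.26 ± 0.30 in short-term (adjusted p = 0.827) and 0.23 ± 0.27 in long-term endothelial cells (adjusted p = 1.00). Both values depend on single arrays. Leaving out short-term replicate 3 gave 0.50 for the short-term difference, leaving out untreated replicate 3 gave 0.58, and leaving out any other array of those groups gave 0.09 to 0.15. The long-term one was 0.55 without untreated replicate 3, and 0.06 to 0.14 without untreated replicate 1 or 2 or long-term replicate 1. Ddit3 had 5.89, 6.08 and 7.44 in short-term, 6.14, 5.59, 7.06, 7.38 and 6.34 in long-term and 6.16, 5.88 and 6.85 in untreated endothelial cells. The 3 highest Ddit3 values were 7.44 in short-term replicate 3, 7.38 in long-term replicate 4 and 7.06 in long-term replicate 3. Those arrays were also the 3 highest for Sdf2l1, at 8.21, 8.48 and 8.27, and long-term replicates 3 and 4 are among the macrophage-high arrays, with epithelial marker means of 6.66 and 8.45. Short-term replicate 3 had a macrophage mean of 5.30 and an epithelial mean of 6.93, and the part of these markers was not tested. Dnajb9 had 7.35, 7.50 and 7.71 in short-term, 7.32, 7.29, 7.83, 7.48 and 8.13 in long-term and 7.62, 8.79 and 7.78 in untreated endothelial cells, with untreated replicate 2 the highest array. Syvn1, the ubiquitin ligase Hrd1 of ER-associated degradation, ranged from 7.28 to 8.88 in short-term, 7.79 to 9.01 in long-term and 8.44 to 8.82 in untreated endothelial cells. In tumour cells Syvn1 ranged from 8.51 to 8.82 in short-term, 8.05 to 8.57 in long-term and 8.26 to 8.97 in untreated groups, and it overlapped between treatments in both cell types. Isolation stress genes averaged 8.95 to 9.31 in short-term, 8.73 to 9.38 in long-term and 8.29 to 8.63 in untreated endothelial cells.

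**Figure D2:**
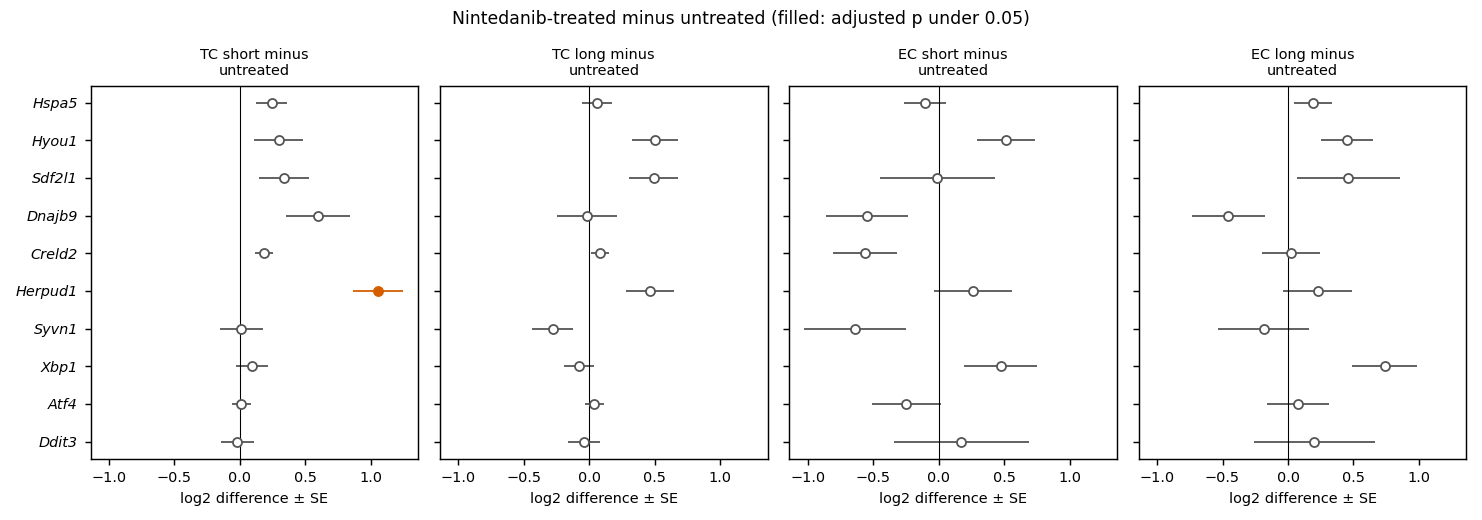
Log2 difference from untreated (horizontal axis) of the 10 genes, with standard errors as bars, in tumour cells (TC) and endothelial cells (EC) of both treatment lengths. Filled points have an adjusted p under 0.05. The single filled point is Herpud1 in short-term tumour cells, at 1.06.

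The difference of the treatment effects between cell types was tested in 1 fit over all 23 arrays. For the short-term effect, endothelial minus tumour cells, no member was called, beside 0.0953% of all genes. The values furthest from 0 were -1.14 ± 0.41 for Dnajb9 (adjusted p = 0.344), -0.80 ± 0.36 for Herpud1 (adjusted p = 0.426) and -0.75 ± 0.25 for Creld2 (adjusted p = 0.303). The Herpud1 value was -0.48 without untreated endothelial replicate 3. These 3 members had an unadjusted p under 0.05, beside 11% of all genes. For the long-term effect no member and 0% of all genes were called, and the 1 member with an unadjusted p under 0.05, beside 5.33% of all genes, was Xbp1, at 0.82 ± 0.28 (adjusted p = 0.713). The Herpud1 effect of the tumour cells was therefore not shown to differ from that of the endothelial cells.

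Between the sorted cell types, Ddit3 was lower in endothelial cells under all 3 treatments, and Xbp1 was higher in the short-term and long-term groups. Ddit3, whose product CHOP drives late stages of the response, had the values above in endothelial cells. In tumour cells it had 8.08, 7.99, 7.67 and 8.30 in short-term, 7.92, 7.96, 7.99, 7.98 and 8.07 in long-term and 8.04, 7.84 and 8.19 in untreated groups. No endothelial array reached the lowest tumour cell array. The difference, endothelial minus tumour cells, was -1.54 ± 0.36 in short-term (adjusted p = 0.0027), -1.48 ± 0.30 in long-term (adjusted p = 7.57e-04) and -1.73 ± 0.39 in untreated cells (adjusted p = 0.0030). Ddit3 was lower in all 3 pairs under each of the 32 alternatives run per pair.

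Xbp1 had 8.31, 8.11, 8.12 and 8.02 in short-term, 8.10, 7.91, 7.92, 7.87 and 8.06 in long-term and 7.84, 8.37 and 7.93 in untreated tumour cells. The endothelial arrays given above stood over every tumour cell array of the same treatment in the short-term and long-term groups, and overlapped in the untreated groups. The difference was 0.70 ± 0.20 in short-term (adjusted p = 0.0115), 1.13 ± 0.17 in long-term (adjusted p = 3.53e-05) and 0.32 ± 0.22 in untreated cells (adjusted p = 0.362). The short-term call did not hold without endothelial short-term replicate 1, at 0.57 with adjusted p = 0.0631, and adjusted p ran between 0.0030 and 0.0631 over its 32 alternatives.

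Counted by treatment, 6 of 10 members were called between short-term cells, 1 higher and 5 lower in endothelial cells, beside 40% of all genes, 23% higher and 17% lower. Among the genes that passed the filter at the 50th percentile, as all members did, 15.6% were called higher and 31.3% lower. The members lower in endothelial cells were Ddit3, Atf4, Creld2, Herpud1 and Hspa5. Atf4, which encodes a factor of amino acid and redox genes, had 8.89, 8.66 and 8.53 in short-term endothelial cells, against 9.46, 9.38, 9.40 and 9.31 in short-term tumour cells. It differed by -0.70 ± 0.18 (adjusted p = 0.0060) without overlap. Creld2, also without overlap, differed by -0.66 ± 0.17 (adjusted p = 0.0050), Herpud1, whose groups overlapped, by -0.63 ± 0.25 (adjusted p = 0.0485) and Hspa5 by -0.44 ± 0.14 (adjusted p = 0.0159). Hspa5 had 10.05, 10.42 and 10.46 in short-term endothelial cells, against the tumour cell values above, and it was not called without endothelial short-term replicate 1, at -0.31 and adjusted p = 0.109, its adjusted p running between 0.0059 and 0.109 over its alternatives. Hspa5 was also not called with the groups of the contrast alone (adjusted p = 0.0686), with array weights (0.0770), with renewed quantile normalization (0.0575) and with the replicate block (0.0702). Herpud1 lost its call when any one of 14 of the 23 arrays was left out, the smallest size being -0.39 with adjusted p = 0.253 when short-term endothelial replicate 3 was left out. Those arrays are untreated tumour replicates 1, 2 and 3, short-term tumour replicates 1, 3 and 4, long-term tumour replicates 1, 2, 3 and 5, short-term endothelial replicate 3, and long-term endothelial replicates 2, 3 and 4. Its adjusted p ran between 0.0185 and 0.253 over the 32 alternatives, and 13 of them called it. Syvn1 was also called lower without endothelial short-term replicate 2, at -0.99 and adjusted p = 0.0064. Without the 3 macrophage-high arrays 5 members were called.

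Between long-term cells, 2 of 10 members were called, beside 32% of all genes, 15.7% higher and 16.3% lower, and beside 16.4% higher and 29.9% lower among the genes that passed that filter. They were Xbp1, higher in endothelial cells, and Ddit3, lower. Atf4 had 9.31, 8.45, 9.18, 9.54 and 8.61 in long-term endothelial cells and 9.45, 9.55, 9.30, 9.38 and 9.39 in long-term tumour cells, a difference of -0.40 ± 0.15 (adjusted p = 0.0507). It was called when long-term endothelial replicate 4, at 9.54 the highest endothelial array, was left out, at -0.53 and adjusted p = 0.0067. Leaving out long-term endothelial replicate 1 (-0.47) or 3 (-0.44), or short-term endothelial replicate 1 (-0.40), also gave the call, at adjusted p = 0.0315, 0.0441 and 0.0480, and without the 3 macrophage-high arrays it was -0.63 (adjusted p = 0.0030). It was -0.26 without long-term endothelial replicate 2. Atf4 was also called with a filter at the 30th percentile of mean level (adjusted p = 0.0474), array weights (0.0392) and median centring (0.0211). Sdf2l1 was called when long-term endothelial replicate 2 was left out, at 0.73 and adjusted p = 0.0497. The adjusted p of Atf4 ran between 0.0030 and 0.159 over its alternatives. Between untreated cells 1 of 10 members was called, Ddit3, beside 18.3% of all genes, 8.18% higher and 10.2% lower, and 12.3% higher and 20.3% lower among the genes that passed that filter. Atf4 was at -0.44 ± 0.20 (adjusted p = 0.138) and Dnajb9 at 0.69 ± 0.30 (adjusted p = 0.128) there, the second at 0.32 without untreated endothelial replicate 2, and the other 7 members differed by -0.09 to 0.57.

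The level of all genes between the cell types, against which these counts stand, depends on the scaling and on the filter. The median of all genes, endothelial minus tumour cells, was 0.109 in short-term cells, and it was -0.0041 after centring each array on its median. In short-term cells 4591 genes were called higher and 3381 lower in the deposited values, 2372 and 3950 after centring, and 2606 and 2842 after renewed quantile normalization. In long-term cells 3125 were called higher and 3253 lower, and 1922 and 3781 after centring. In untreated cells 1630 were called higher and 2026 lower, and 1324 and 2560 after centring. Among the genes that passed the filter at the 50th percentile the median was -0.27 in short-term, -0.19 in long-term and -0.18 in untreated cells, and 1554, 1631 and 1227 genes were called higher and 3123, 2985 and 2027 lower. The members' own median was -0.51 in short-term, 0.03 in long-term and 0.08 in untreated cells. The members' split, 1 higher and 5 lower in short-term cells, was the same after centring, and Ddit3 was then at -1.65 and Xbp1 at 0.59. Renewed quantile normalization left Xbp1, Ddit3 and Atf4 called. Epithelial marker means, which reached 8.45 on an endothelial array, and the macrophage means above moved with the cell types, and their part in these differences was not tested.

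**Figure D3:**
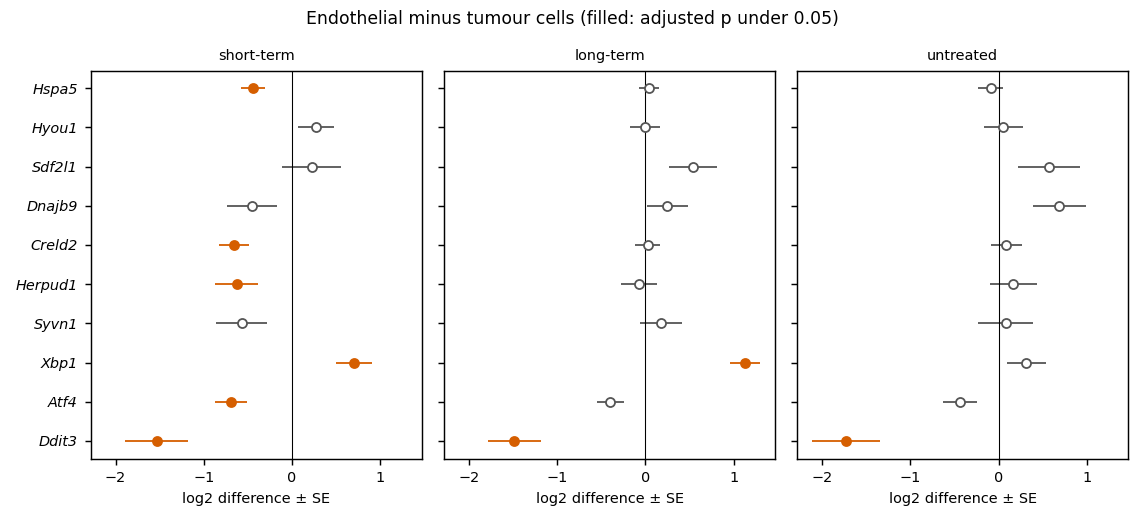
Log2 difference, endothelial minus tumour cells (horizontal axis), of the 10 genes with standard errors as bars, in short-term, long-term and untreated cells. Filled points have an adjusted p under 0.05. Ddit3 is filled at -1.54, -1.48 and -1.73, and Xbp1 at 0.70 and 1.13 in the treated cells.

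The other genes of the pathway were taken from 4 lists of 39 genes, of which 38 were measured and Mbtps2 was not. None of the 38 was called in any of the 6 treatment comparisons within a cell type. At an unadjusted p under 0.05 there were 14 in short-term and 15 in long-term against untreated tumour cells, 4 in long-term against short-term tumour cells, and 2, 3 and 5 in the same comparisons of endothelial cells. As shares of the 38 these are 36.8%, 39.5% and 10.5% in tumour cells, beside 11%, 10.1% and 11.9% of all genes, and 5.26%, 7.89% and 13.2% in endothelial cells, beside 8.17%, 4.18% and 9.4% of all genes. Among the genes that passed the filter at the 50th percentile the shares were 14.6%, 12.6% and 16.0% in tumour cells. In endothelial cells they were 6.90%, 4.60% and 8.53%. In short-term tumour cells the smallest adjusted p-values belonged to some of the folding factors and of the ATF4 and CHOP targets. Those 8 targets split, with 5 positive and 3 negative, and Chac1 was at -0.32 ± 0.13 (adjusted p = 0.352). The disulfide isomerase gene Pdia4 differed by 0.49 ± 0.11 (adjusted p = 0.0851), the stress gene Nupr1 by 0.62 ± 0.14 (adjusted p = 0.0851), the transcription factor gene Atf3 by 1.57 ± 0.36 (adjusted p = 0.0953) and the secreted ER factor gene Manf by 0.37 ± 0.09 (adjusted p = 0.107). Pdia4 had 8.62, 8.93, 8.77 and 8.92 in short-term, against 8.35, 8.20 and 8.41 in untreated tumour cells. This gene has 2 transcript clusters, of which the brighter is given. Its difference lay between 0.31 and 0.55 over its 20 alternatives, and none of them called it. Atf3 had 9.61, 8.77, 9.14 and 8.87 in short-term, against 8.04, 6.98 and 7.58 in untreated tumour cells. Neither gene's groups overlapped. Atf3 was called when long-term replicate 1 was left out of the fit (adjusted p = 0.0400), with the filter at the 50th percentile (0.0472) and with the replicate block (0.0164), its adjusted p lying between 0.0164 and 0.254 over its alternatives. Nupr1 was called when long-term replicate 5 was left out (adjusted p = 0.0423, between 0.0423 and 1.00). Of the 16 ER folding factors 15 were positive in each treated tumour cell group, with medians of 0.19 (short-term) and 0.21 (long-term). The other lists were less one-sided. Of the 9 ER-associated degradation factors 7 were positive in short-term (median 0.21) and 5 in long-term cells (median 0.03). In both groups 5 of 8 ATF4 and CHOP targets were positive (medians 0.06 and 0.13), and 4 of 5 sensor and protease genes (medians 0.14 and 0.20). Over all 38 other listed genes 31 were positive in short-term cells (81.6%, median 0.16) and 29 in long-term cells (76.3%, median 0.18), beside 46.8% of all genes in both. The genes that passed the filter at the 50th percentile had medians of 0.02 (short-term) and 0.05 (long-term).

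Ero1a, the oxidase that renews disulfide isomerases, was the listed gene with the smallest p in long-term tumour cells. Its levels were 8.52, 9.15, 8.34, 8.75 and 8.38 in long-term, 7.96, 8.13, 7.95 and 7.99 in short-term and 7.99, 7.94 and 7.79 in untreated tumour cells. All long-term arrays stood above both other groups. The difference was 0.72 ± 0.16 from untreated (adjusted p = 0.132) and 0.61 ± 0.14 from short-term cells (adjusted p = 0.0642). Dnajc10 (0.34), Atf6b (0.35) and Edem2 (0.52) followed in the first comparison, and Nupr1 (-0.41), Chac1 (0.29) and Atf3 (-0.73) in the second, with adjusted p-values from 0.158 to 0.389. Without long-term replicate 5, Ero1a was called between long-term and short-term tumour cells (0.68, adjusted p = 0.0490), as was Nupr1 (-0.51, adjusted p = 0.0369). Ero1a was also called with the filters at the 30th (adjusted p = 0.0481) and 50th percentile (0.0421) and with the replicate block (0.0446). The block sets long-term replicate 5 aside, since no other tumour cell group has that number. It gave the same difference, 0.68, as leaving that array out. The adjusted p over the 20 alternatives ran between 0.0421 and 0.167 for Ero1a and between 0.0369 and 1.00 for Nupr1.

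In endothelial cells the smallest unadjusted p-values belonged to Pdia6 and Atf3 in short-term against untreated cells, and to Atf3 and Ero1a in long-term against untreated cells. Atf3 had 9.42, 8.69 and 7.97 in short-term, 9.42, 8.88, 8.64, 10.19 and 8.77 in long-term and 7.84, 7.19 and 6.56 in untreated endothelial cells, and the treated arrays stood above the untreated ones. It differed by 1.50 ± 0.48 in short-term (adjusted p = 0.549) and 1.99 ± 0.43 in long-term cells (adjusted p = 0.651). Atf3 is also known as a gene that tissue handling raises, and the isolation stress means above moved with it. Their part in the Atf3 differences of either cell type was not tested. Ero1a differed by 0.87 ± 0.19 in long-term against untreated (adjusted p = 0.659) and by 0.83 ± 0.19 in long-term against short-term endothelial cells (adjusted p = 0.354). Pdia6, a disulfide isomerase, was at -0.76 ± 0.23 in short-term against untreated cells (adjusted p = 0.549) and at 0.82 ± 0.21 in long-term against short-term cells (adjusted p = 0.382). Ppp1r15a (0.72), Sil1 (0.60), P4hb (0.44), Derl2 (0.52), Asns (-0.73) and Ppib (-0.49) complete the genes named by rule in these comparisons, and none passed. Asns was at -0.36 without short-term replicate 3 and -0.38 without untreated replicate 1, and Ppib at -0.27 without short-term replicate 2.

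Between cell types the other listed genes split in both directions. Of the 38, 2 were called higher and 11 lower in short-term endothelial cells, 3 and 9 in long-term cells, and 4 and 7 in untreated cells. The shares of all genes called higher and lower were 23% and 17%, 15.7% and 16.3%, and 8.18% and 10.2% in these comparisons. Among the genes past the filter at the 50th percentile they were 15.6% and 31.3%, 16.4% and 29.9%, and 12.3% and 20.3%. In untreated cells Nupr1 differed by -3.17 ± 0.48 (adjusted p = 6.48e-05) and the ATF6-cleaving protease gene Mbtps1 by -1.11 ± 0.20 (adjusted p = 3.73e-04). The sensor genes Atf6 (1.43 ± 0.27, adjusted p = 7.45e-04) and Atf6b (1.23 ± 0.19, adjusted p = 9.89e-05) were higher in endothelial cells. Of the 8 ATF4 and CHOP targets, 3 were called lower in each of the 3 treatments and none was called higher, to be read against those shares. They were Atf5, Nupr1 and Sesn2 each time, of which Atf5 and Sesn2 are named after their values were seen.

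**Figure D4:**
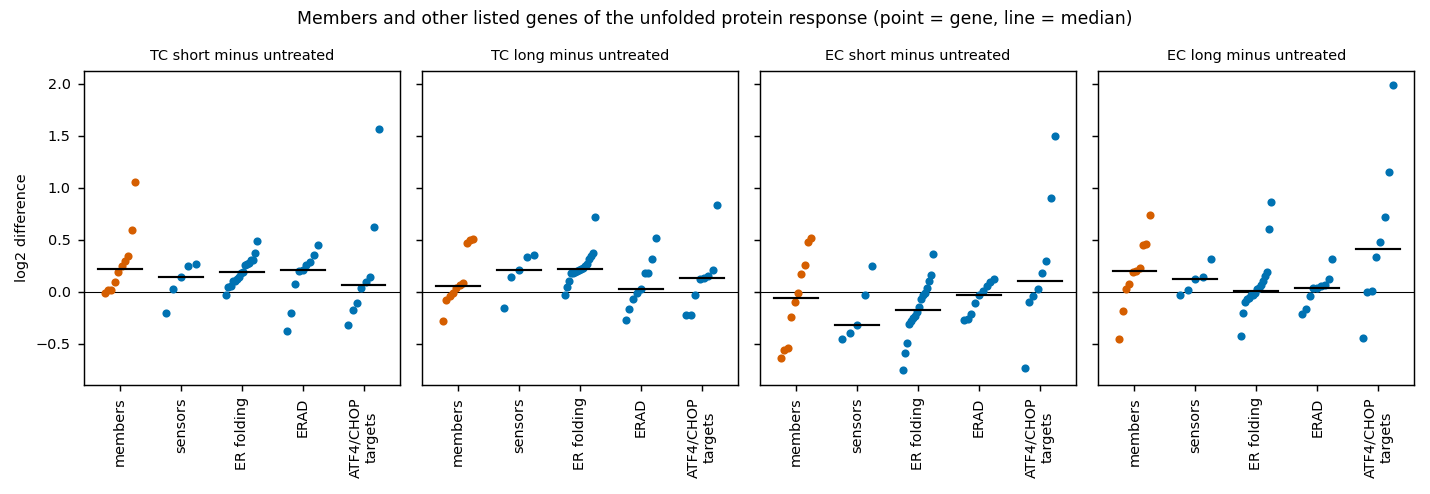
Log2 difference from untreated (vertical axis) of the 10 genes and of the other listed genes of the pathway in 4 lists, in tumour cells (TC) and endothelial cells (EC) of each treatment length. Points are genes and lines are list medians. The ER folding median is 0.19 (short-term) and 0.21 (long-term) in tumour cells, and -0.18 (short-term) and 0.01 (long-term) in endothelial cells.

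Within groups the members did not move as 1 block. Deviations from group means were correlated between members in 45 pairs per cell type. In tumour cells (12 arrays) the coefficient ran from -0.49 (Creld2 with Ddit3) to 0.90 (Hspa5 with Hyou1) with a median of 0.07. In endothelial cells (11 arrays) it ran from -0.66 (Syvn1 with Ddit3) to 0.85 (Ddit3 with Sdf2l1) with a median of 0.07. The points share array, depth of signal and cell composition, and the values are a description.

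**Figure D5:**
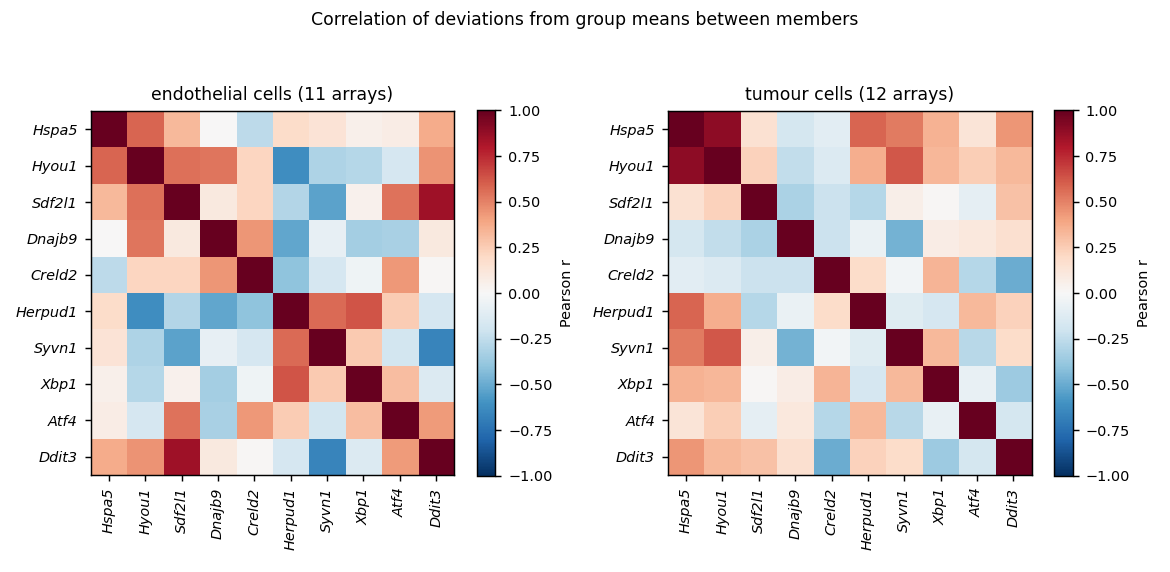
Pearson correlation of deviations from group means between the 10 genes, in endothelial cells (11 arrays) and tumour cells (12 arrays), on a scale from -1 to 1. The darkest red off the diagonal is Hspa5 with Hyou1 in tumour cells (0.90), and in endothelial cells Ddit3 with Sdf2l1 (0.85).

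Genes most like the mean of the members' standardised levels were named by the same measure, with treatment differences left in. Over the 12 tumour cell arrays they were Slpi (0.94), Lrrc41 (0.92), Marchf6 (0.91), Sdc3 (0.90) and Ncam1 (0.90). Over the 11 endothelial arrays they were Hmox2 (0.97), Myl6 (0.95), H2-M3 (0.92), Champ1 (0.91) and Ccdc149 (0.90). Predicted genes and small RNAs were left out, and the coefficients describe these arrays.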

How the data were processed

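Expression was measured on 23 arrays, and each deposited value is the log2 signal of a transcript cluster. The authors used RMA and oligo, per the submitters' processing notes. Since RMA equalises the distributions of the arrays, a change is relative to the rest of its array. The values ran from 1.93 to 14.06. Of 35556 clusters, 21789 name 1 gene in the platform annotation, 1621 name several and 12146 are unnamed here. Symbols were updated through the RefSeq table (GRCm38.p6, names alone), which held 21698 of the single-gene clusters. Where a gene had more than 1 cluster (999 genes) the one with the highest mean was kept, and no filter on dim clusters was set.

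Linear models were fitted with limma 3.58.1 in R 4.3.3 (lmFit and eBayes, two-sided) on all 19938 genes, with 12 tumour cell arrays in one fit, 11 endothelial arrays in another, and all 23 for contrasts across cell types. P-values were adjusted by Benjamini-Hochberg over all genes, with a call at an adjusted p under 0.05. Errors given with differences are standard errors. Overlap between groups was read for named genes alone, with no share of all genes counted beside it, and is a description. The fits were tested on simulated data.

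The members, lists and rules were chosen with earlier results of these data known. All members are described. Differences are printed for members with an unadjusted p under 0.05 and for Herpud1 against untreated, and the rest as ranges. Up to 4 other listed genes with the smallest p were named per treatment comparison within a cell type and for untreated endothelial against tumour cells. Listed genes with no single-gene cluster, Mbtps2 among them, were not analysed here. The 5 genes most like the members were taken by Pearson correlation. Alternatives are named in the closing section.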

Additional observations from a re-analysis of the deposited data

Results flagged for a closer look

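Single arrays were set against the rest of their group for the 10 members in the groups of 4 or 5 arrays, 30 sets in all, and 2 had an array far from the others. Creld2 in long-term tumour cells was 7.80 log2 units in replicate 3, with a gap of 0.751 of the range of the 5 arrays. Syvn1 in short-term tumour cells was 8.82 in replicate 1, with a gap of 0.888 of the range of the 4 arrays. Chance picks out about 1 in 20 such sets.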

How the results depend on the processing

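Alternatives were 1 fit over all arrays (or the groups of the contrast alone), mean-level filters (30th or 50th percentile), array weights, the mean of a gene's clusters, renewed quantile normalization, median centring, each array left out, the replicate number as a block and, chosen after seeing the data, the 3 macrophage-high endothelial arrays left out. Across cell types the replicate block joined endothelial and tumour cell samples of equal number and treatment, as pairs. An array whose number had no counterpart was set aside by the block. Such arrays included long-term tumour replicate 5 within tumour cells and short-term tumour replicate 4 across cell types. No difference printed for a named gene changed sign. The member called in short-term against untreated tumour cells became 0 with 1 fit over all arrays, with array weights and with the replicate block, and was 0 to 1 with an array left out. Long-term against short-term tumour cells had 1 member called with the replicate block, Dnajb9, and 0 to 1 with an array left out. For Dnajb9 the block gave the same difference, -0.79, as leaving out long-term replicate 5. Untreated endothelial against tumour cells had 3 called with the groups of the contrast alone (Ddit3, Atf4 and Sdf2l1), and 1 with any array left out. Short-term endothelial against tumour cells had 3 called with renewed quantile normalization, 4 each with the replicate block, array weights and the groups of the contrast alone, and 4 to 7 with an array left out. Long-term endothelial against tumour cells had 3 called with the 30th percentile filter, array weights and median centring, and 2 to 3 with an array left out. Counts of 0 in the other comparisons stayed 0 under the alternatives run. The cause of these shifts was not tested. Samples of equal replicate number within a cell type correlated at -0.149 to 0.112 (19 pairs) in their deviations and 6 of 19 correlated best with their own number. Endothelial and tumour cell samples of equal number and treatment correlated at -0.11 to 0.064 (11 pairs), so the main fits did not take the numbers as pairing. The labels do not say whether such samples came from the same mice, and the main tests between cell types treated them as independent. Among all genes the calls numbered 101 in short-term tumour cells (23 to 127 over the alternatives), 18 in long-term (2 to 30), 243 in long-term against short-term (95 to 357), 0 in each endothelial treatment comparison (up to 106, 34 and 262), and 19 and 0 for the short-term and long-term differences in effect (0 to 138 and 0 to 5). Between cell types they numbered 7972 in short-term (4677 to 8317), 6378 in long-term (4616 to 6922) and 3656 in untreated cells (2692 to 4138). One fit over all arrays called Ero1a, Pdia6 and P4hb in long-term against short-term endothelial cells. Endothelial arrays scatter more, which limits what they can show.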
